A study of Mus musculus with 2 samples.

Results

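The collagen genes of the mouse were examined in lung of embryos at day 14.5, in the 2 libraries of total RNA that make up the study. Members were taken by symbol: every protein-coding gene present in both deposited gene tables whose name has the form Col, a type number, a and a chain number. The rule found 44 genes among 21474 protein-coding genes and 43346 mouse genes in all. They were grouped by collagen type as 11 fibrillar genes, 8 basement membrane genes, 6 beaded filament genes (type VI), 9 fibril-associated genes and 10 others. Both libraries belong to 1 group, embryonic lung of strain B6NCrl with no genotype or treatment named, and each was made from 10.0 ng of RNA with added spike-in RNA. The collection days in July were 15 for replicate 1 and 17 for replicate 2. The labels call each sample both pooled male and female and a single lung of 1 pup, so how many animals each library holds is uncertain, and p-values measure only the difference between these libraries.

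Collagens are proteins of the extracellular matrix in which 3 chains wind into a triple helix. Fibrillar collagens form the fibrils that give connective tissue its strength, type IV collagen forms the network of basement membranes, and type VI forms beaded microfilaments around cells. In the lung these matrices surround airways, vessels and the later gas exchange surface, and each type is built from its own set of chains. Levels are given in TPM, the deposited abundance per effective length, so that genes of unlike length can be compared with each other. TPM sums to the same total in every library, so a level is relative to all other RNA counted. Spike-ins were among that RNA, with 4.94% of counts in replicate 1 and 3.96% in replicate 2. A gene was called detected where both libraries gave it at least 1 TPM, and values are mean ± SD over the 2 libraries (n = 2) unless each library is named.

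Mouse gene counts, which are estimated reads, came to 31940637 in replicate 1 and 33167255 in replicate 2. All 6 lung epithelium and all 5 lung mesenchyme markers were detected. Of these, 0 was called 2-fold different between the libraries, beside 1.1% of all genes tested. Heart muscle markers did differ: the summed level of 10 heart muscle genes was 639 and 120 TPM in replicates 1 and 2, and the 9 of them that were tested were all called lower in replicate 2. Counts of 4 Y-linked genes summed to 7072 in replicate 1 and 4 in replicate 2, against 18.5 and 27580 for Xist, although the labels give both samples the same mixed sex. Collection day, sex-linked transcripts and heart muscle transcripts therefore all separate the same 2 libraries and cannot be told apart.

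Of the 44 collagen genes 35 (79.5%) were detected, beside 58.8% of all protein-coding genes. The median over the detected collagens was 21.1 TPM and that over the 12637 detected protein-coding genes was 20.2 TPM. A few members stood far above both. At 100 TPM or more there were 7 genes, at 10 TPM or more 22, between 1 and 10 TPM 14, and 8 lay under 1 TPM. Summed over all members, collagen TPM was 3897 in replicate 1 and 3970 in replicate 2. Collagens took 1.35% of mouse gene counts in replicate 1 (95% exact binomial interval 1.347 to 1.355) and 1.33% in replicate 2 (1.324 to 1.332), intervals that cover counting error only. The 3 highest genes, Col3a1, Col1a1 and Col1a2, carried 66.1% of the summed TPM in replicate 1 and 65.5% in replicate 2.

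**Figure D1:**
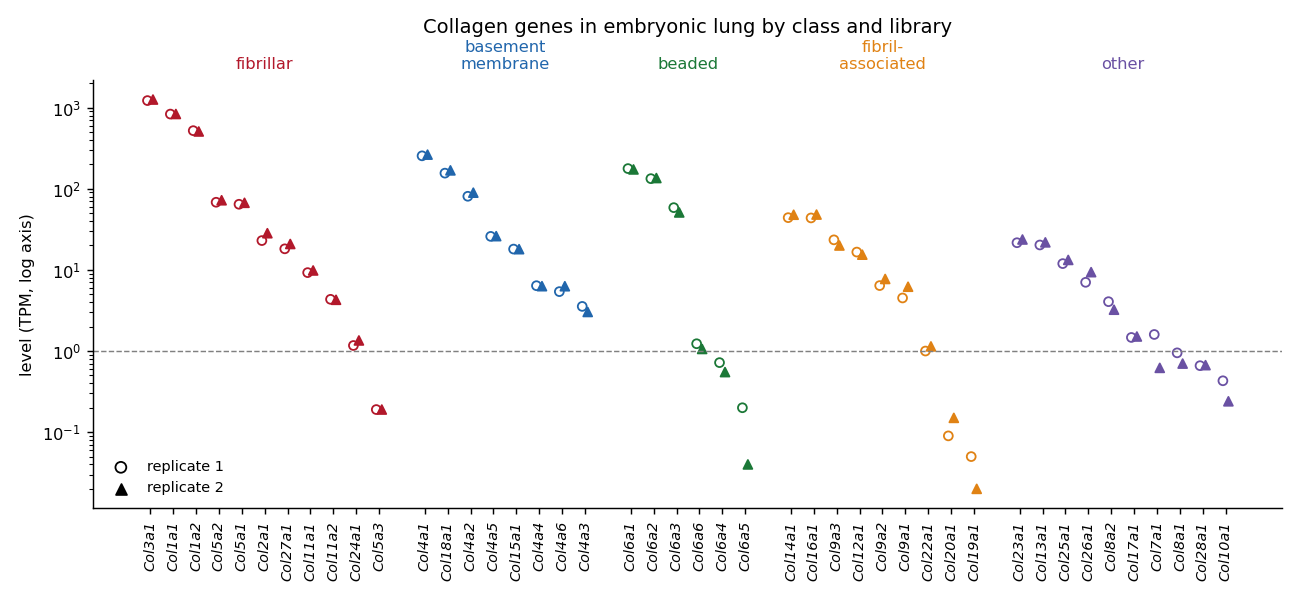
Level of each of the 44 collagen genes in TPM on a log axis, grouped by class and ordered by mean level within a class; open circles are replicate 1, filled triangles replicate 2, and the dashed line marks 1 TPM. Mean levels run from 1240.2 TPM for Col3a1 to 0.035 TPM for Col19a1, and in most genes both libraries lie on top of each other.

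Fibrillar genes made up 70.8 ± 0.198% of the summed collagen TPM, basement membrane genes 14.4 ± 0.361%, beaded filament genes 9.32 ± 0.303%, fibril-associated genes 3.64 ± 0.0722% and the others 1.85 ± 0.0672%. The order of the classes was the same in both libraries. It was also the same when the share was taken of expected counts, where fibrillar genes held 71.1%, basement membrane genes 17.0% and beaded filament genes 7.51%. In bulk tissue, a share cannot separate how many cells of a type are present from how much collagen RNA each cell holds. A second measure of level was used for genes with many annotated transcripts: the gene's expected count per effective length of its longest transcript, put on the TPM scale and called here the longest-transcript level. On that scale fibrillar genes held 71.2% and fibril-associated genes 2.89%.

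**Figure D2:**
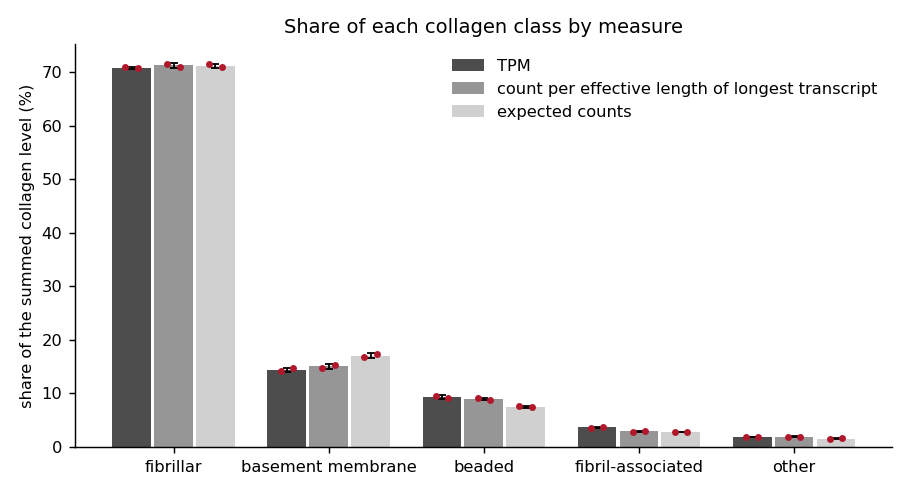
Share of the summed collagen level held by each class, in percent, by TPM, by expected count per effective length of the longest transcript and by expected count; bars are means of 2 libraries, whiskers are SD and red points are the libraries. Fibrillar genes hold between 70.8% and 71.2% by all 3 measures.

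The classes differ in the coding sequence itself, since a triple helix is built of residue triplets that each begin with glycine, whose codon starts with GG. In the longest annotated coding sequence of each gene (GENCODE release M21), runs of at least 5 such triplets were counted. Fibrillar genes had a longest run of 216 to 344 triplets with a median of 338, and the runs of Col1a1, Col1a2 and Col3a1 were 338, 339 and 344 triplets long. Basement membrane genes had 10 to 24 separate runs and none longer than 66 triplets, beaded filament genes had a longest run of 37 to 87, and fibril-associated genes one of 32 to 113. The first 63 bases of the longest run are shown for the 3 most abundant collagens and for the leading basement membrane and beaded genes, with the glycine codon of each triplet in capitals.
Col1a1: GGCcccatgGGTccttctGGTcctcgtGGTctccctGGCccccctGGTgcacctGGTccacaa
Col1a2: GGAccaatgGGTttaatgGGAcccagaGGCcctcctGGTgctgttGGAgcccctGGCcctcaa
Col3a1: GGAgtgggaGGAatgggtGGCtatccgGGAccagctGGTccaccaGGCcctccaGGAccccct
Col4a1: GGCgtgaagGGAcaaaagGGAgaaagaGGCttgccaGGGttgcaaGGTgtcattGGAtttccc
Col6a1: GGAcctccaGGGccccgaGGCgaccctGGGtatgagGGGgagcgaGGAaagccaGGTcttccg
All 5 stretches open each of 7 triplets with a glycine codon, and what lies between differs from gene to gene. That of Col3a1 holds 2 further glycine codons within its triplets, left in lower case. Proline codons number 8 in the stretches of Col1a1 and Col3a1, 6 in those of Col1a2 and Col6a1 and 2 in that of Col4a1. Lysine codons number 2 in the stretch of Col4a1, 1 in that of Col6a1 and 0 in those of Col1a1, Col1a2 and Col3a1. Choice of glycine codon also varied: GGT made up 53.8% of the triplets' glycine codons in Col1a1, 51.3% in Col1a2 and 40.6% in Col3a1, beside a median of 35.3% over fibrillar genes, 21.9% over basement membrane genes and 19.7% over beaded filament genes. Over the 11 fibrillar genes the share ran from 16.1% in Col27a1 to 53.8% in Col1a1, and the 3 most abundant genes were among the 4 with the highest share, with Col2a1 at 40.7%.

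Among fibrillar genes, the chains of the major interstitial fibrils dominated. Col3a1, the only chain of type III collagen, which is typical of distensible tissue (ENSMUSG00000026043.14, chromosome 1 from 45311538 to 45349706 on GRCm38), stood at 1222 and 1258 TPM in replicates 1 and 2 and held rank 68 of all protein-coding genes. Col1a1, the α1 chain of type I collagen (ENSMUSG00000001506.10, chromosome 11 from 94936224 to 94953042), had 833 and 835 TPM, at rank 116. Col1a2, the α2 chain (ENSMUSG00000029661.12, chromosome 6 from 4504814 to 4541544), had 520.5 and 508 TPM, at rank 225. The libraries differed far less than these genes did from one another, so the order Col3a1, Col1a1, Col1a2 held in both. On the longest-transcript level Col3a1 fell closer to Col1a1, with 941 ± 12.0 against 830.3 ± 0.629. The chains of type V collagen, which lies inside type I fibrils and sets their diameter, came next and close together. Col5a2 had 68.2 and 72.2 TPM and Col5a1 64.4 and 67.1 TPM, ranges that do not overlap but lie within a few TPM. Col5a3, the remaining type V chain, had only 0.19 TPM and 25 counts in each library.

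Fibrillar genes known from cartilage were present at lower levels. Col2a1, the chain of cartilage type II collagen, had 22.99 and 28.3 TPM in replicates 1 and 2. Col27a1, a fibrillar collagen of cartilage and of several embryonic epithelia, had 18.2 and 20.9 TPM. Col11a1 and Col11a2, the type XI chains that nucleate cartilage fibrils, had 9.55 ± 0.410 and 4.31 ± 0.0424 TPM. Col24a1, a minor fibrillar chain, was near the limit at 1.26 ± 0.127 TPM.

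Exon 2 of Col2a1 is spliced in or out. Forms that keep it encode a cysteine-rich domain in the propeptide and are known from chondrocyte precursors and non-cartilage embryonic tissue, and forms without it from mature cartilage. The exon, chr15:98000403-98000606 on the minus strand of GRCm38, is 204 bases long. It is shown from GENCODE release M21 with its 10 in-frame cysteine codons in capitals.
Col2a1 exon 2: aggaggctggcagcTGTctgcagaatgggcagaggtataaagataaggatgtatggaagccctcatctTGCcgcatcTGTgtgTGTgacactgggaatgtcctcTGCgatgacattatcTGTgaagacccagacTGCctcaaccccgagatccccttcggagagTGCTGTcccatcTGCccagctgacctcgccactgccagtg
The transcript with this exon, Col2a1-201, carried 84.8% of the gene's TPM in replicate 1 and 71.2% in replicate 2. Col2a1-202, which lacks it, carried 13.7% and 22.4%. The split of reads between them is itself an estimate: Col2a1-202 was assigned 335 and 675 counts with deposited posterior standard deviations of 98.2 and 143 counts. The form with exon 2 led in both libraries by far more than this uncertainty. Cartilage markers were mixed: 6 of 12 were detected, led by Hapln1, a link protein, at 25.3 ± 0.481 TPM and Cytl1 at 24.2 ± 0.820 TPM, while Acan, the main cartilage proteoglycan, had 0.06 ± 0.0283 TPM and Matn1, Snorc and Ucma had 0 counts in both libraries, a count that allows up to 3 reads each. Summed over the list, these markers stood at 85.04 TPM in replicate 1 and 85.01 in replicate 2.

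All 8 basement membrane genes were detected. Col4a1 (ENSMUSG00000031502.9, chromosome 8 from 11198423 to 11312826), the α1 chain of the type IV network found in all basement membranes, led with 255 and 264 TPM in replicates 1 and 2. Its partner Col4a2 (ENSMUSG00000031503.9, chromosome 8 from 11312805 to 11449287) had 80.8 and 89.5 TPM. The other type IV chains, which build specialised networks in some basement membranes, were lower. Col4a5 had 25.9 and 26.1 TPM, Col4a4 6.34 ± 0.0636 TPM, Col4a6 5.84 ± 0.629 TPM and Col4a3 3.29 ± 0.368 TPM. The means of Col4a4 and Col4a6 differ by less than the SD of Col4a6, while Col4a3 lay below both in each library. Of the TPM of Col4a4, 38.7 ± 1.08% lay on a retained-intron transcript of 1263 nt. On the longest-transcript level Col4a4 was at 4.18 ± 0.0203, below Col4a6 at 5.84 ± 0.632 and nearer to Col4a3 at 3.27 ± 0.372. The 6 type IV genes form 3 head-to-head pairs. The annotated starts of Col4a1 and Col4a2 lie 21 nt apart with 22 shared exon bases on opposite strands, those of Col4a3 and Col4a4 72 nt apart on chromosome 1, and those of Col4a5 and Col4a6 1309 nt apart on the X chromosome.

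Type XVIII and XV collagens carry heparan sulfate or chondroitin sulfate chains and release antiangiogenic fragments, endostatin in the case of Col18a1. Col18a1 (ENSMUSG00000001435.10, chromosome 10 from 77052178 to 77166548) stood at 156 and 169 TPM in replicates 1 and 2, next to Col4a1 in the class. Col15a1 had 18.06 and 18.01 TPM. Col18a1 is known for a pair of promoters, of which the upstream one gives the short protein of most basement membranes and the downstream one gives longer proteins known from liver. Col18a1-202, whose first base is the upstream start at 77166548, carried 98.9% of the gene's TPM in replicate 1 and 99.0% in replicate 2. Col18a1-203, starting at 77113705, carried 0.28% and 0.18%, on 45.7 and 31.5 counts with posterior standard deviations of 24.2 and 17.9. In the annotation the lung RNA of this gene was thus assigned almost wholly to the upstream start. The exon-free part of its promoter, chr10:77166549-77166780 on the minus strand of GRCm38.p6 (RefSeq), is shown because nearly all of the gene's reads were assigned to this start, with the GC box letters GGGCGG and the letters CCAAT in capitals on either strand.
Col18a1 upstream start: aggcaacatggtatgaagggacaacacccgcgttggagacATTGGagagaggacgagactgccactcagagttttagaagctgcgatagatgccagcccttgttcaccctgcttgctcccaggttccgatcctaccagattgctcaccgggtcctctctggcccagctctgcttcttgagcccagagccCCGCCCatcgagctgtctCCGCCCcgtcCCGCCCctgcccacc
The 232 bases hold CCGCCC, the reverse complement of GGGCGG, at 3 places near the start, and the reverse complement of CCAAT at 1 place further upstream. These letters are a description and do not show that a factor binds there.

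Beaded filament genes fell into a high and a low set. Col6a1 (ENSMUSG00000001119.7, chromosome 10 from 76708792 to 76726168) stood at 177 and 173 TPM in replicates 1 and 2, and Col6a2 (ENSMUSG00000020241.9, chromosome 10 from 76595762 to 76623630) had 133 and 136 TPM. Col6a3, the large α3 chain (ENSMUSG00000048126.12, chromosome 1 from 90765923 to 90843971), had 58.55 and 51.04 TPM. These 3 genes encode the classical type VI trimer. The chains that can take the place of α3 lay at or under the detection limit: Col6a6 had 1.15 ± 0.120 TPM, Col6a4 0.635 ± 0.120 TPM and Col6a5 0.120 ± 0.113 TPM. Col6a5 had 19.4 counts in replicate 1 and 7.23 in replicate 2.

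Fibril-associated collagens decorate the surface of fibrils and have short helices broken by other domains. Col14a1, which binds type I fibrils, had 44.1 and 47.9 TPM in replicates 1 and 2, and Col16a1 43.7 and 48.1 TPM, so these 2 genes overlapped in TPM. On the longest-transcript level they did not, with 36.0 ± 1.92 for Col14a1 and 27.1 ± 1.75 for Col16a1. Col12a1, a large chain of tendon and other stretched tissue, had 16.6 and 15.4 TPM. The chains of type IX collagen, which coats type II fibrils in cartilage and is also made in the eye, were unequal: Col9a3 had 23.5 and 19.98 TPM, Col9a2 7.07 ± 0.933 TPM and Col9a1 5.35 ± 1.20 TPM. Col22a1, a collagen of muscle to tendon junctions, had 1.07 ± 0.0990 TPM. Col20a1 and Col19a1 were under the limit, with 0.120 and 0.035 TPM on 8 and 14 counts and 5 and 2 counts. The exons of Col9a3 share 234 bases with those of Tcfl5 on the opposite strand, and no source used here says whether strand was used in counting. Tcfl5 itself had 0.12 TPM.

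Col9a1 also has a pair of starts. The upstream start gives a long chain with a large amino-terminal domain, the form of cartilage, and the downstream start gives a short chain known from cornea and the vitreous of the eye. In lung, Col9a1-202 from the downstream start at 24195187 carried 97.8% of the gene's TPM in replicate 1 and 100% in replicate 2, on 291 and 411 counts. Col9a1-201 from the upstream start at 24177610 had 0 counts in both, with posterior standard deviations of 3.42 and 2.58 counts. The reads of this cartilage gene were thus assigned to the short form in both libraries. The exon-free parts of the promoters on chromosome 1 are shown side by side, chr1:24177360-24177609 and chr1:24194953-24195186, both on the plus strand of GRCm38.p6 (RefSeq), since reads were assigned to the second start and none to the first.
Col9a1 upstream start: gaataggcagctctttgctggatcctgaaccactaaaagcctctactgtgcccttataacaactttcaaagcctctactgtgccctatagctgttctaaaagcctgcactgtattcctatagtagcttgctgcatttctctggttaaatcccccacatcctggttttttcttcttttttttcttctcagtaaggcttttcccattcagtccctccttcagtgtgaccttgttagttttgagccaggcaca
Col9a1 downstream start: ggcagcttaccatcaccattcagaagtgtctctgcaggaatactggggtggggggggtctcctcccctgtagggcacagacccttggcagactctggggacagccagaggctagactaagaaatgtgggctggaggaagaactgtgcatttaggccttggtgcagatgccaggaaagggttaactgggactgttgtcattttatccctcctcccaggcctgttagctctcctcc
Neither stretch has letters in capitals, since none of the motifs searched in the promoters was found in it. The downstream window does hold CCAAT on the gene's strand, running from the end of the stretch shown into the annotated exon, which is left out here.

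The remaining 10 genes were mostly low. The highest were the transmembrane collagens Col23a1, Col13a1 and Col25a1. Col23a1 had 21.6 TPM in replicate 1 and 23.7 in replicate 2, Col13a1 20.3 and 21.85 TPM, and Col25a1 12.0 and 13.3 TPM. Col13a1 is found at cell junctions and neuromuscular synapses, and Col25a1 is known for guiding motor innervation. Col17a1, the hemidesmosome collagen of basal epithelial cells, is also a transmembrane collagen but had only 1.49 ± 0.0283 TPM. Col26a1, a secreted collagen first known as Emid2, had 8.21 ± 1.66 TPM. Col8a2 had 3.64 ± 0.587 TPM and Col8a1 0.825 ± 0.177 TPM, the short-chain network collagens of vessels and cornea. Col7a1, which forms the anchoring fibrils of skin, had 1.60 and 0.62 TPM in replicates 1 and 2 although its counts were 51 and 50, and its longest-transcript level was 0.247 ± 0.00413. The counts were thus alike while the TPM was not: transcripts under 50% of the longest held 14.5% of the counts and 86.8% of the TPM in replicate 1, and 2.62% and 61.9% in replicate 2. Col28a1 had 0.665 ± 0.00707 TPM, and Col10a1, the collagen of hypertrophic cartilage, 0.335 ± 0.134 TPM on 29 and 16 counts. No member of the family had 0 counts.

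Chains that assemble with each other were compared within each library. Col1a1 was at 1.62 ± 0.0298 times Col1a2 in TPM, with 1.60 in replicate 1 and 1.64 in replicate 2. Type I collagen is assembled mostly from a pair of α1 chains and a single α2 chain. Col4a1 was at 3.05 ± 0.146 times Col4a2, for a network in which the same arrangement of chains is known. Both ratios moved little on the longest-transcript level, to 1.67 ± 0.0306 and 3.06 ± 0.159. The type V chains were nearly level, with Col5a1 at 0.937 ± 0.0100 times Col5a2. Col6a1 stood at 1.30 ± 0.0382 times Col6a2. Among the minor type IV chains, Col4a5 was at 4.47 ± 0.461 times Col4a6 and Col4a3 was at 0.518 ± 0.0528 times Col4a4. For type XI, Col11a1 was 2.22 ± 0.117 times Col11a2, and for type VIII, Col8a1 was 0.225 ± 0.0122 times Col8a2. Type IX was uneven, with Col9a3 at 3.66 times Col9a2 in replicate 1 and 2.58 times in replicate 2, and Col9a1 at 0.753 ± 0.0696 times Col9a2. Col6a3 changed most with the measure, from 0.312 ± 0.0249 times Col6a1 in TPM to 0.131 ± 0.00634 on the longest-transcript level. All 11 ratios lay on the same side of 1 in both libraries and on both scales.

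**Figure D3:**
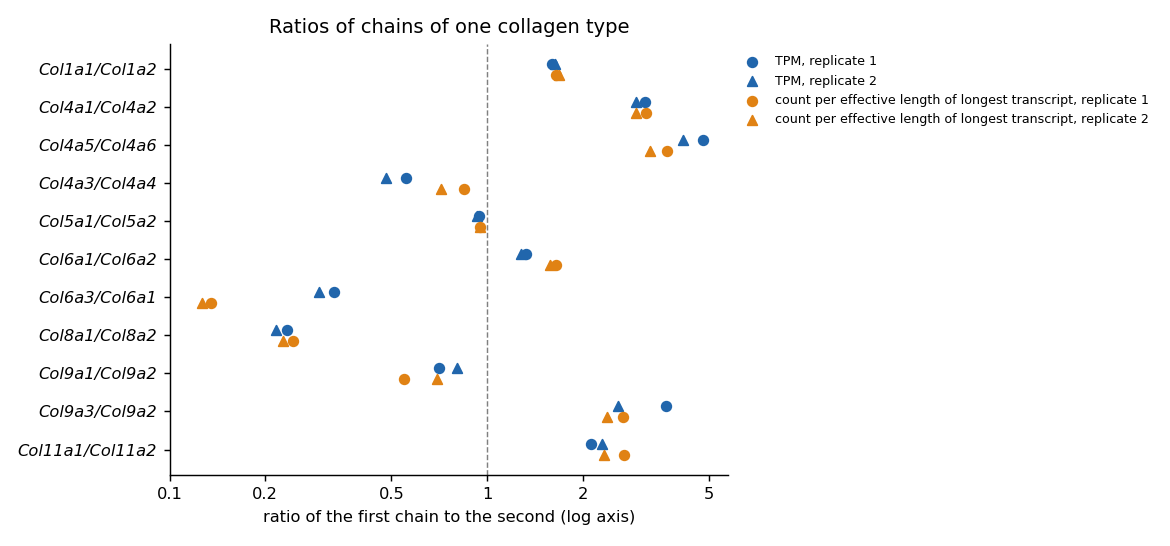
Ratio of the first chain to the second for 11 pairs of chains on a log axis; blue is TPM, orange is the expected count per effective length of the longest transcript, circles are replicate 1 and triangles replicate 2, and the dashed line marks equal levels. Col6a3/Col6a1 shows the widest gap between the measures, 0.312 against 0.131.

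Short annotated transcripts raise a gene's TPM with few reads, and they held a large part of the TPM of the genes whose measures differed most. For Col6a3, Col6a3-206, a retained-intron transcript of 646 nt, carried 46.1% and 46.6% of the gene's TPM on 330 and 291 of its 5355 and 4896 counts. For Col3a1, Col3a1-205 of 737 nt carried 25.9% and 26.1% of TPM, and transcripts under 50% of the longest held 4.15% and 4.27% of the gene's counts. The TPM of Col6a3 was 2.39 times its longest-transcript level, that of Col12a1 2.26 times, and those of Col27a1, Col16a1 and Col15a1 1.70, 1.69 and 1.51 times. Of the 22 members at 10 TPM or more, these 5 reached 1.5 times or more. Between 1 and 10 TPM so did Col4a4 at 1.52 times and Col7a1 at 4.49 times. Under 1 TPM so did Col6a4 and Col6a5, at 1.86 and 1.85 times. In Col18a1 and Col6a2 the TPM was 1.26 and 1.24 times that level although short transcripts held only 0.828% and 0.783% of TPM in Col18a1 and 0% in Col6a2. There the leading transcripts, of 5063 and 3949 nt, are shorter than the longest annotated ones, of 6338 and 4912 nt. Col1a1, Col4a1, Col6a1 and Col23a1 were at 1.00 times theirs. Among 28 members at 5 TPM or more with at least 2 transcripts, 1 transcript carried over 95% of TPM in 12 and over 50% in 21, and no transcript passed 50% in the other 7. Whether these short transcripts exist as RNA or absorb reads of the long ones was not tested.

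**Figure D4:**
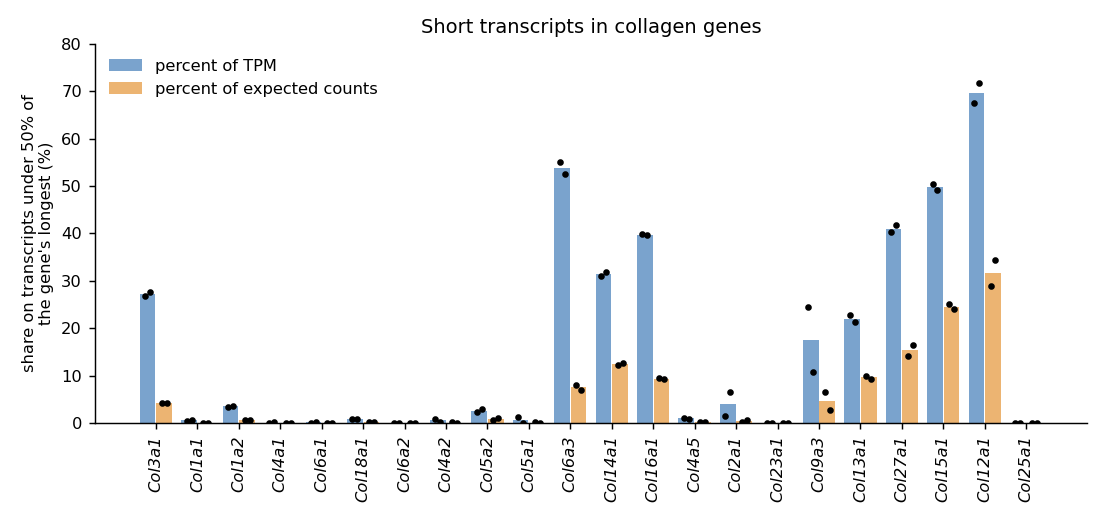
Share of each gene's TPM and of its expected counts that lay on transcripts under 50% of the length of the gene's longest transcript, in percent, for the 22 collagen genes at 10 TPM or more; bars are means and points are the 2 libraries. In Col6a3 these transcripts held 55.2% and 52.5% of TPM but 7.99% and 7.02% of counts.

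The libraries were compared gene by gene by exact binomial testing (two-sided) of the TMM-scaled counts, which asks whether the libraries differ beyond counting error and not whether a condition does. Of 36 collagens at a mean of 1 TPM or more, 0 differed by 2-fold or more at an adjusted p under 0.05, beside 164 of 14870 genes tested (1.1%). Without adjustment and at any size, 17 of the 36 had a p under 0.05 by the same test. The share of all genes at that limit was not counted. At any size, 15 of the 36 (41.7%) passed the adjusted p, beside 22.1% of all genes tested. That count rests on counting error alone. With edgeR's exact test at a common spread over all genes, 0 of 36 passed and 0 had an unadjusted p under 0.05. That spread was estimated from these same 2 libraries taken as replicates. It therefore includes the differences under test, and this result is not an independent check. Collagens have many reads, and where the mean count was 100 or more the shares were 42.9% of 35 collagens and 24.5% of all 12522 genes. That limit does not match genes by read count, and the part of read number in the gap was not tested. The differences were small: 33 of the 36 lay within 1.25-fold, and the median absolute log2 ratio was 0.09 for collagens and 0.10 for all genes tested, or 0.093 and 0.083 where the mean count was 100 or more. The median log2 ratio itself was 0.01 for collagens and 0.00 for all genes, with 18 collagens higher and 18 lower in replicate 2.

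Of the 15 collagens that passed at any size, 8 were lower in replicate 2 and 7 were higher. Of the 3293 genes that passed among all tested, 1677 were lower and 1616 higher (11.3% and 10.9% of all genes tested). These directions are relative to all genes: scaling by the spike-ins moved the median log2 ratio of all genes to 0.34 and that of collagens to 0.35, and 7 of the 8 lower genes, all but Col8a2, then had a ratio above 0. The abundant interstitial chains were lower by small amounts on this scale: the log2 ratio of replicate 2 over replicate 1 was -0.03 for Col3a1 (95% interval -0.04 to -0.02), -0.06 for Col1a1 (-0.07 to -0.04) and -0.09 for Col1a2 (-0.11 to -0.08), with adjusted p by the exact binomial test of 7.5e-06, 5.18e-17 and 9.96e-26. Col1a2, the lowest of them, had 58968 and 57740 counts, and the 3 differences are 1.07-fold or less. In TPM, Col3a1 (1222 and 1258) and Col1a1 (833 and 835) were instead slightly higher in replicate 2, so their direction depends on the measure, while Col1a2 was lower in both. All 4 tested beaded filament genes had a ratio below 0 with TMM, and above 0 with the spike-ins (with TMM, Col6a1 -0.09, Col6a2 -0.04, Col6a3 -0.19, Col6a6 -0.27), of which Col6a1 and Col6a3 passed. Col6a2, which did not pass, was slightly higher in replicate 2 in TPM, with 133 and 136 in replicates 1 and 2. Col12a1 was lower by 1.18-fold, with a log2 ratio of -0.24 (-0.34 to -0.15). Col8a2 and Col4a3 were also lower, at -0.40 (-0.63 to -0.17) and -0.29 (-0.45 to -0.13). The heart muscle markers were lower in the same direction, 639 against 120 summed TPM, and their part in these ratios was not tested.

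Higher in replicate 2 were Col4a2 at a log2 ratio of 0.10 (0.06 to 0.13), Col18a1 at 0.06 (0.03 to 0.09) and Col27a1 at 0.14 (0.04 to 0.23). Also higher were Col2a1 at 0.17 (0.09 to 0.25), Col9a1 at 0.43 (0.21 to 0.65) and Col11a2 at 0.27 (0.07 to 0.48). These 3 chains are known together from cartilage fibrils. Nearly all reads of Col9a1 were assigned to its short form, and the form with exon 2 led in Col2a1. Col11a2 was not higher in TPM, which was 4.34 and 4.28. Their partners Col9a2, Col9a3 and Col11a1 had ratios of 0.09, -0.08 and 0.06 and did not pass. The summed cartilage markers were 85.04 and 85.01 TPM, and 1 of the 6 tested, Matn4, passed, also higher in replicate 2. The part of cartilage in these ratios was not tested. Col26a1 was higher at 0.35 (0.16 to 0.55). The largest fold among passing collagens was that of Col9a1, 1.34-fold on 293 and 411 counts with an adjusted p of 0.00137 by the exact binomial test. The X-linked genes Col4a5 and Col4a6 had ratios of -0.01 and 0.16 with adjusted p of 0.940 and 0.0780 by the same exact binomial test, beside 18.5 and 27580 counts of Xist.

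**Figure D5:**
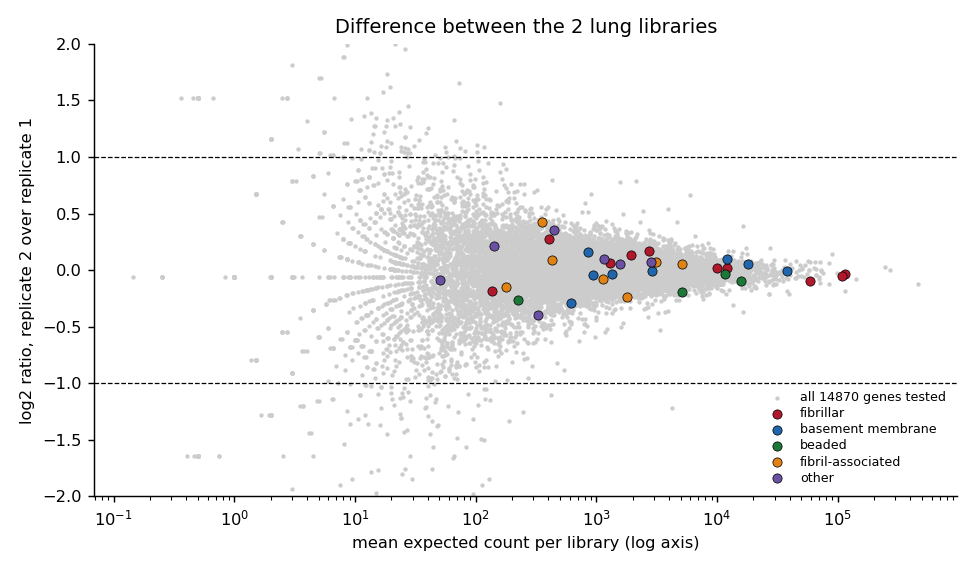
Log2 ratio of replicate 2 over replicate 1 against the mean expected count per library on a log axis for 14870 genes (grey) and the 36 collagens tested (coloured by class); dashed lines mark 2-fold, and 142 genes lie outside the axis. No collagen reaches a dashed line, and the collagens farthest from 0 are Col9a1 at 0.43 and Col8a2 at -0.40.

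The machinery that makes collagen was expressed alongside the chains. Of a list of 35 genes for folding, modification, processing and cross-linking of collagen, 34 were matched and 30 detected, with a median of 33.3 TPM. The 4 highest were Sparc, a collagen-binding matrix protein, at 1122 ± 11.4 TPM, P4hb, the β subunit of prolyl 4-hydroxylase, at 727 ± 1.07 TPM, Serpinh1, the collagen chaperone HSP47, at 497 ± 21.2 TPM, and Ppib, the cyclophilin that acts on procollagen, at 482 ± 8.72 TPM. The catalytic subunits P4ha1, P4ha2 and P4ha3 had 44.1 ± 1.05, 21.6 ± 0.933 and 16.8 ± 0.431 TPM, so the β subunit, which also serves as a general disulfide isomerase, was far above them. None of the 30 tested differed by 2-fold or more between the libraries, beside 1.1% of all genes tested, and 12 passed at any size, beside 22.1% of all genes. Of these 12, 5 were higher and 7 lower in replicate 2 with TMM. Among the 3293 of all genes tested that passed, 1616 were higher and 1677 lower. With the spike-ins the 7 lower genes of the list had a ratio above 0. Under that scaling 29 of the 30 passed, beside 11525 of all 14870 genes tested. Of 10 collagen receptors 6 were detected. Itgb1, the shared β1 integrin chain, had 322 ± 5.49 TPM, the discoidin receptors Ddr2 and Ddr1 41.1 ± 1.54 and 27.9 ± 3.46 TPM, and Itga1, the collagen-binding α1 integrin chain, 21.6 ± 0.0141 TPM. None of the 6 differed by 2-fold or more, beside 1.1% of all genes tested, and 3 passed at any size, beside 22.1%. With TMM, Ddr1 and Mrc2 were higher in replicate 2 and Itgb1 was lower, at a log2 ratio of -0.09. With the spike-ins the ratio of Itgb1 became 0.25 and all 6 receptors passed, beside 11525 of all 14870 genes tested.

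Promoter windows from RefSeq, 250 bases before to 50 bases after the start, matched 35 of the 44 collagens, with 38 windows in all. Col1a1, Col2a1, Col5a2, Col4a3, Col9a3, Col12a1, Col14a1, Col22a1 and Col26a1 had none. Motifs were searched in the 250 bases before the start. TATAAA on the gene's strand was found in 13.2% of collagen windows and in 7.59% of the 32851 windows of all genes. The latter were not limited to protein-coding genes. CCAAT on either strand was found in 34.2% and 33.8%. GGGCGG on either strand was found in 57.9% of collagen windows and 32.7% of all windows, and the classes ranged from 2 of 6 fibril-associated and 4 of 8 basement membrane windows to 5 of 9 of the others, 5 of 7 beaded and 6 of 8 fibrillar windows. Such matches describe the sequence only. Some windows share bases, such as those of Col4a1 and Col4a2 and the 2 of Col6a2, which both hold GGGCGG and are counted apart.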

How the data were processed

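Per the labels, total RNA of 2 lung libraries was sequenced. Per the deposited read-me files, tables were made from transcriptome alignments to mm10 with GENCODE M4. No aligner, quantifier or strand setting is named there. Per the file headers, the authors deposited expected counts (estimated reads), TPM, FPKM, posterior means and SDs, and each transcript's percent of its gene's TPM. Names, positions and transcript sequences came from GENCODE M21 on GRCm38, and 42462 of 43346 mouse genes matched. Of 201 collagen transcripts 198 matched, 187 with the same length.

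Expected counts were rounded and scaled by the TMM method of edgeR 4.0.16 (in R 4.3.3), using 14870 genes that averaged 1 TPM or more. Ratios used 0.5 added counts. The exact two-sided binomial test doubled the smaller tail, with Benjamini-Hochberg adjustment over these genes, because 1 library a side leaves no residual spread for a quasi-likelihood test. The test was checked on counts simulated with counting error only, so the check does not cover any further spread between libraries. Collagens at 10 TPM or more are given by library, lower ones as mean ± SD, and all that passed are named. The members and lists were chosen with earlier results of these data known. Intervals are at a confidence level of 95%.

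Further marker lists were tested at 2-fold. For endothelium, smooth muscle, basal epithelium, neural crest, bone and cartilage 0 genes were called, of 5, 5, 5, 2, 3 and 6 tested. Over all genes tested 1.1% were called, so 0 in lists this short does not show that the libraries were alike. In skeletal muscle 3 of 4 tested genes were lower in replicate 2, in mesothelium 1 of 6 was lower, and in liver 2 of 4 were higher. Alternatives were other scalings (DESeq2 1.42.0 size factors, total counts, spike-ins), filters, posterior means, FPKM, 2 added counts, a 1.5-fold limit, edgeR's exact test and leaving out each library.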

Additional observations from a re-analysis of the deposited data

How the results depend on the processing

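Between 27 (at 5 TPM or more) and 39 (at 0.5 TPM or more) collagens were detected under the alternatives, 31 with FPKM, 37 with posterior means and 35 or 36 with 1 library alone. Class shares kept their order under every measure tried. By expected counts the fibrillar, basement membrane, beaded, fibril-associated and other shares were 71.1%, 17.0%, 7.51%, 2.78% and 1.53%. On the longest-transcript level, chosen after seeing the data, the first 4 were 71.2%, 15.0%, 8.96% and 2.89%. By posterior mean TPM the last 2 were 3.77% and 1.93%. No chain ratio crossed 1. Per length of the longest transcript Col1a1/Col1a2 was 1.67, Col4a5/Col4a6 3.48, Col4a3/Col4a4 0.781, Col5a1/Col5a2 0.952, Col6a1/Col6a2 1.61, Col6a3/Col6a1 0.133, Col8a1/Col8a2 0.238, Col9a1/Col9a2 0.626 and Col11a1/Col11a2 2.53, and the last was 1.91 by posterior mean TPM.

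The count of collagens called 2-fold was 0 under all scalings, filters and added counts tried and at 1.5-fold. Collagens passing at any size numbered 14 without a filter, where more genes share the adjustment. They numbered 30 with spike-in scaling, all higher, beside 11525 of all 14870 genes tested. With edgeR's exact test, whose spread came from the same 2 libraries, they numbered 0, beside 116 of all genes. Under the other settings they numbered 15. With spike-in scaling the median log2 ratio of collagens was 0.35, and ratios turned positive for Col3a1 (0.31), Col1a1 (0.29), Col1a2 (0.25), Col6a1 (0.25), Col6a3 (0.15), Col12a1 (0.10) and Col4a3 (0.052), because spike-ins took 4.94% of counts in replicate 1 and 3.96% in replicate 2. With 2 libraries, an SD is itself uncertain, and the 8 collagens under 1 TPM were tested between the libraries only in the setting without a filter.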
